A study of Oryza sativa Indica Group and Oryza sativa Japonica Group with 8 samples.

Results

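The genes described here are the cyclins, division kinases and DNA replication factors of rice, measured in young panicles whose stage ran from microspore mother cells to meiosis. They were chosen by name. A probe set, the group of probes that reads 1 transcript on the array, was a member if it mapped to 1 gene with a symbol or synonym CYCA, CYCB, CYCD, CDKA, CDKB, ORC, MCM, PCNA or RPA followed by a number or class letter, with or without the prefix Os. The rule found 48 probe sets of 39 genes, out of 57258 probe sets on the array, of which 22436 had 1 gene (17905 genes). DNA replication factors, which act in S phase, made up 24 probe sets of 20 genes, with 11 probe sets of 8 MCM genes, 6 of 5 ORC genes and 7 of 7 RPA genes. Mitotic genes (CYCB and CDKB) had 6 probe sets of 5 genes, A-type cyclins 3 of 3 genes, and the class called G1 and general here (CYCD and CDKA) 15 of 11 genes. PCNA itself carries no number or letter in the annotation, so it is given beside the members and counted in none of the totals. Of the 48 probe sets 47 were bright enough to be tested, and 1 of the 2 MCM8 probe sets was not. For 7 genes there was more than 1 probe set, and probe sets of 1 gene are not independent. The 6 probe sets whose identifier ends in x_at or s_at can also read a related transcript, so their values are uncertain in that respect.

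Total RNA was hybridised to 8 Affymetrix arrays, 1 for each of 4 lines at each of 2 day average temperatures, in plants raised in a growth cabinet. The tms5 lines were AnS-1, an indica mutant with thermosensitive genic male sterility (TGMS), and Os02g12290iL1, a japonica line in which RNA interference knocks down Os02g12290. Their wild types were AnN (indica) and ZH11 (japonica). The temperatures were 28 °C, restrictive for tms5 in the study's design, and 23 °C, permissive. The design asks whether the ribonuclease RNase ZS1 takes part in mRNA metabolism. Each line had a single array per temperature, Os02g12290iL1 is 1 RNA interference line with a promoter not named in the labels, and the target gene was not analysed here. The p-values of the joint tms5 and the temperature comparisons therefore measure the spread between arrays of different lines and backgrounds. In the tests of 1 tms5 line against its own wild type the 2 temperatures served as replicates. Those p-values measure how alike the line difference was at 28 °C and 23 °C, and not the spread between plants. Precision is limited by how few arrays there are.

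Cell division runs through a fixed order of steps. D-type cyclins bind CDKA and release cells from G1, the origin recognition complex (ORC) marks replication origins and loads the MCM2-7 helicase, and replication protein A (RPA) coats the single strands that the helicase opens. A-type cyclins act from S phase towards mitosis, and B-type cyclins with the plant-specific kinase CDKB drive mitosis itself. In a young panicle, floral organs and anther wall layers still divide by mitosis, while the meiocytes pass through premeiotic S phase and then divide by meiosis.

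The deposited arrays lay on 3 scales, with median intensities of 139 and 141 in indica at 28 °C, 59.2 and 61.3 in indica at 23 °C and 109 to 117 in japonica, and all values below are intensities after quantile normalization. Log2 differences are on the scale log2(intensity + 16), and the added 16 makes the changes of dim probe sets look smaller. Because the indica arrays of the 2 temperatures came on different scales, temperature and array set cannot be told apart in indica. The median log2 change at 28 °C over the 34317 tested probe sets was -0.12 in indica and -0.01 in japonica, and the changes of the members stand beside that shift. Marker sets of the organ and of green leaf gave summed signal on every array. Summed intensities were 2446 to 6359 for 9 meiocyte probe sets and 22610 to 39640 for 9 floral organ probe sets. They were 6104 to 38860 for 8 tapetum probe sets and 3010 to 14540 for 6 green leaf probe sets. The planned names gave 6 genes of 11 for meiocytes, 9 of 9 for floral organs, 8 of 9 for tapetum and only 2 of 7 for green leaf. Above 50 on every array were 7 of 9 meiocyte, 9 of 9 floral organ, 6 of 8 tapetum and 4 of 6 green leaf probe sets. No marker was at 0, which by itself does not show that a gene was expressed. These are bulk samples, so fewer cells of a type and less RNA per cell cannot be told apart.

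At 28 °C, the B-type cyclins other than CycB1;3, the kinase gene CDKB2;1 and a part of the DNA replication genes, led by OsMCM6 and RPA1B, were lower than at 23 °C in both indica lines, and no member passed the test in japonica. In indica 10 of 23 tested DNA replication probe sets fell and 1 rose (limma, Benjamini-Hochberg adjusted p under 0.05), where 28.9% of all tested probe sets fell and 20.6% rose. By family 7 of 10 tested MCM, 1 of 6 ORC and 2 of 7 RPA probe sets fell. Only the MCM share lay above that of all tested probe sets. Of the 6 mitotic probe sets 5 fell, and their median log2 change was -1.19, against -0.69 for the tested DNA replication probe sets and -0.12 for all tested probe sets. In japonica 0 of 47 members were called (0% of all tested probe sets), 6 had an unadjusted p under 0.05 (8.36% of all tested probe sets had), and the median change was 0.14 for DNA replication and -0.21 for mitotic probe sets. Of those 6, both ORC4 probe sets and RPA2B were higher at 28 °C, and 1 probe set each of MCM9, CDKA;1 and CycD5;2 lower. The indica counts rest on few arrays: 29 members were called in all, 11 without AnN at 28 °C and 14 without AnS-1 at 28 °C.

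**Figure D1:**
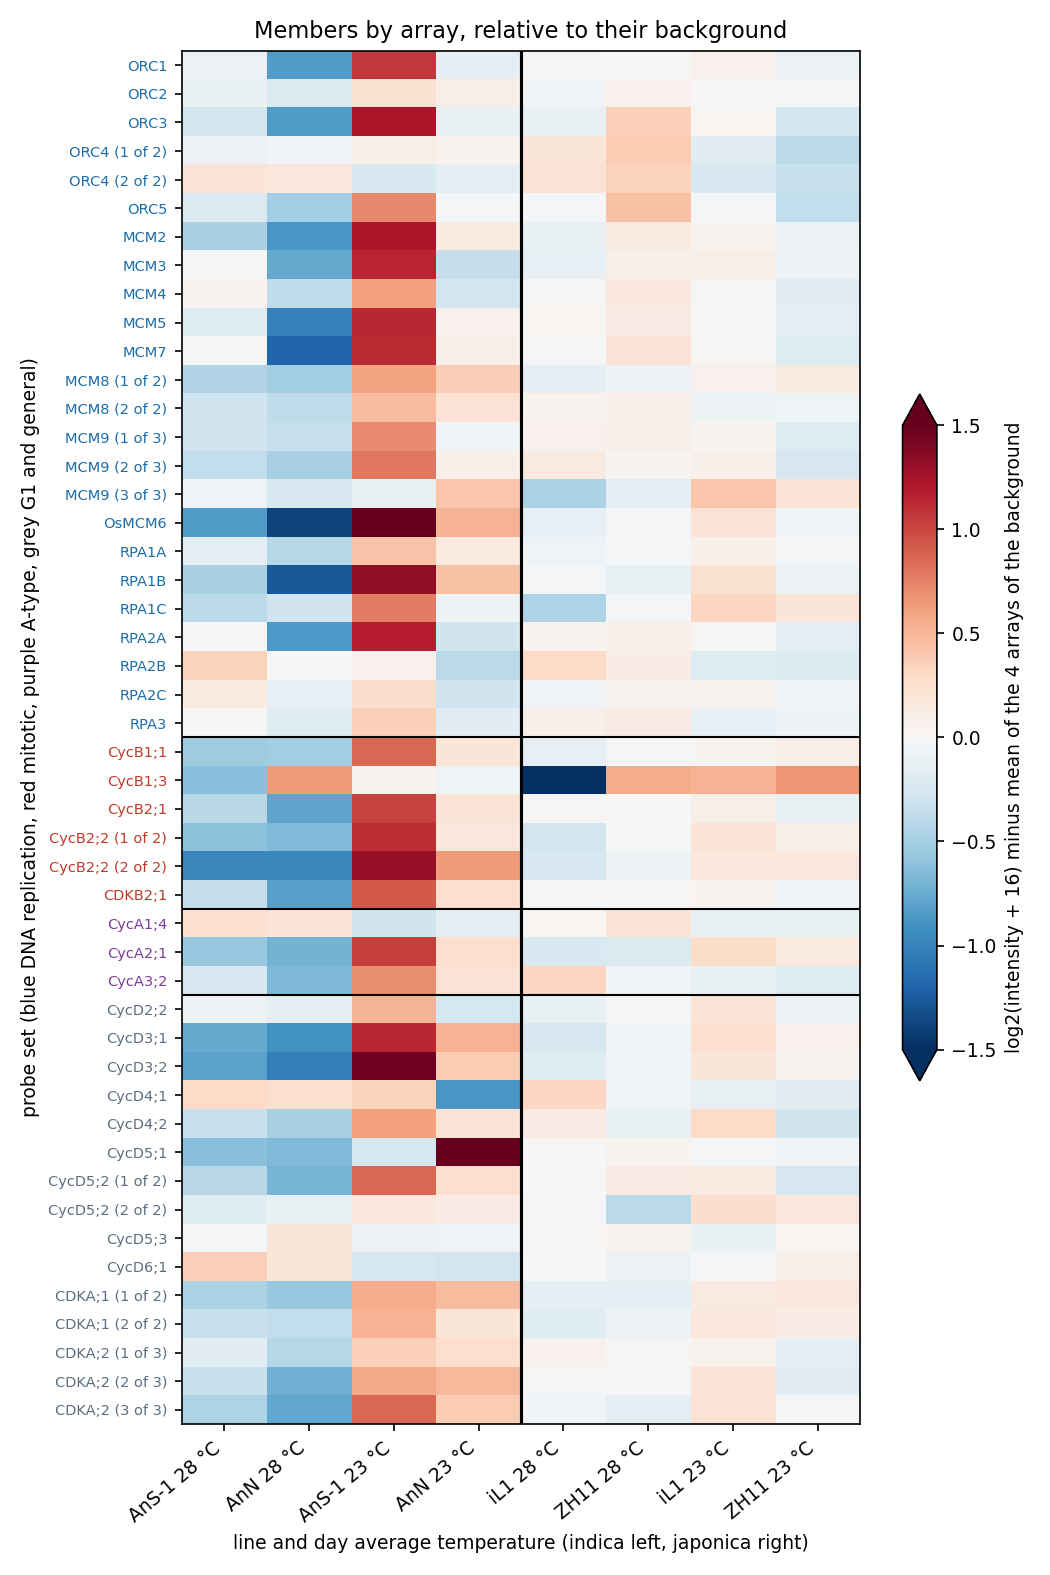
Each row is 1 of the 48 member probe sets and each column 1 array, with colour giving log2(intensity + 16) minus the mean of the 4 arrays of the same background (blue lower, red higher, colours saturate at the ends of the bar). The indica columns are mostly blue at 28 °C and mostly red in AnS-1 at 23 °C, while the japonica columns are pale except for CycB1;3 in Os02g12290iL1 (iL1) at 28 °C.

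Within the MCM helicase the subunit gene OsMCM6 had the widest temperature change in indica. Its intensity was 182 in AnS-1 and 119 in AnN at 28 °C, against 1132 and 492 in the same lines at 23 °C. In japonica it was 953 in Os02g12290iL1 and 1022 in ZH11 at 28 °C, against 1213 and 1000 at 23 °C. The 2 indica arrays at 28 °C lay below all 6 others, with a log2 change of -2.22 ± 0.29 (SE) in indica (limma adjusted p = 0.00311) and -0.16 in japonica (adjusted p = 0.935). MCM2, another helicase subunit, had 619 in AnS-1 and 472 in AnN at 28 °C, against 2051 and 965 in the same lines at 23 °C (log2 change -1.36, adjusted p = 0.016). For MCM5 the values were 659 in AnS-1 and 367 in AnN at 28 °C, against 1675 and 792 in the same lines at 23 °C (log2 change -1.20, adjusted p = 0.0235). MCM7 fell as well, by 1.20 on the log2 scale (adjusted p = 0.0403). MCM3 and MCM4 did not pass the test. Their log2 changes were -1.17 and -0.57 in AnS-1 and -0.41 and -0.09 in AnN.

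MCM8 and MCM9 are paralogs of the helicase known in animals for DNA repair. MCM8 was dim in both backgrounds, and MCM9 was dimmer in indica than in japonica on each of its 3 probe sets. The tested MCM8 probe set had 64.1 in AnS-1 and 59.6 in AnN at 28 °C, against 119.5 and 98.2 in the same lines at 23 °C (log2 change -0.68, adjusted p = 0.00532). In japonica it had 82.7 to 93.8. The MCM8 probe set too dim to be tested had 13.2 in AnS-1 and 12 in AnN at 28 °C, against 44.8 and 35.6 in the same lines at 23 °C, and 31.6 to 41.3 in japonica. Of 3 MCM9 probe sets 2 fell, by 0.87 and 0.65 on the log2 scale (adjusted p = 0.0106 and 0.0447). The other MCM9 probe set did not pass, with 0.04 in AnS-1 and -0.66 in AnN, so the probe sets of this gene did not move alike.

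Among the ORC genes ORC1, the largest subunit in other eukaryotes, had 213 in AnS-1 and 120 in AnN at 28 °C, against 489 and 206 in the same lines at 23 °C (log2 change -0.92, adjusted p = 0.0484). ORC4 was the only gene of the replication class with a probe set that rose past the test in indica. That probe set, 1 of its 2, had 403 in AnS-1 and 399 in AnN at 28 °C, against 299 and 318 in the same lines at 23 °C (log2 change 0.36, adjusted p = 0.0314). In japonica the same probe set had 376 in Os02g12290iL1 and 411 in ZH11 at 28 °C, against 273 and 252 at 23 °C, higher at 28 °C in both lines but not past the test (log2 change 0.56, adjusted p = 0.267). The other ORC4 probe set had indica changes of -0.18 in AnS-1 and -0.08 in AnN. ORC2, ORC3 and ORC5 did not pass the test in indica (adjusted p = 0.0542, 0.0648 and 0.0823). In ZH11 the 6 ORC probe sets were all higher at 28 °C, with a median log2 change of 0.66, while in Os02g12290iL1 the median was -0.03 (1 array each, no test).

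The single-strand binding protein RPA has a large, a middle and a small subunit, encoded in rice by several genes. RPA1B, a large subunit gene, had 415 in AnS-1 and 232 in AnN at 28 °C, against 1490 and 796 in the same lines at 23 °C, a log2 change of -1.76 ± 0.22 (SE) (adjusted p = 0.00266). In japonica it had 938 in Os02g12290iL1 and 892 in ZH11 at 28 °C, against 1128 and 904 at 23 °C, with no separation of the temperatures. RPA1A also fell in indica (log2 change -0.58, adjusted p = 0.012), with 513 in AnS-1 and 419 in AnN at 28 °C, against 774 and 631 in the same lines at 23 °C. The third large subunit gene, RPA1C, did not pass (-1.17 in AnS-1 and -0.22 in AnN), and neither did the middle subunit genes RPA2A (-1.21 and -0.57), RPA2B (0.28 and 0.41) and RPA2C (-0.12 and 0.17) or the small subunit gene RPA3 (-0.37 and -0.02). RPA2B was higher at 28 °C in each of the 4 lines, with 0.49 in Os02g12290iL1 and 0.31 in ZH11. PCNA, the sliding clamp of the replication polymerases, had 1401 in AnS-1 and 1026 in AnN at 28 °C, against 3567 and 2416 in the same lines at 23 °C, and fell by 1.28 on the log2 scale (adjusted p = 0.004). In japonica PCNA had 2644 in Os02g12290iL1 and 2827 in ZH11 at 28 °C, against 2982 and 2872 at 23 °C.

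The mitotic genes were read by 5 B-type cyclin probe sets and 1 CDKB probe set. CDKB2;1, a kinase of the G2 phase and mitosis, had 1079 in AnS-1 and 780.1 in AnN at 28 °C, against 2626 and 1653 in the same lines at 23 °C. In japonica it had 2445 in Os02g12290iL1 and 2504 in ZH11 at 28 °C, against 2551 and 2412 at 23 °C, a range in which the temperatures overlapped. Its log2 change was -1.17 ± 0.19 (SE) in indica (adjusted p = 0.00594) and -0.0037 in japonica (adjusted p = 0.998). CycB2;2 gave 349 in AnS-1 and 353 in AnN at 28 °C, against 1769 and 1104 in the same lines at 23 °C on the probe set that moved most (log2 change -1.94, adjusted p = 0.0017), and its second probe set fell by 1.27 (adjusted p = 0.0159). For CycB2;1 the values were 599 in AnS-1 and 459 in AnN at 28 °C, against 1635 and 924 in the same lines at 23 °C (log2 change -1.21, adjusted p = 0.00599). CycB1;1 had 987 in AnS-1 and 993 in AnN at 28 °C, against 2608 and 1628 in the same lines at 23 °C (log2 change -1.05, adjusted p = 0.0114). In all 5 of these probe sets both indica arrays at 28 °C lay below both at 23 °C. CycB1;3, the sixth, did not follow them and is described with the tms5 lines.

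The A-type cyclins split. CycA2;1 fell in indica (493 in AnS-1 and 445 in AnN at 28 °C, against 1539 and 875 in the same lines at 23 °C, log2 change -1.28, adjusted p = 0.00613). CycA3;2 fell too, with 414 in AnS-1 and 304 in AnN at 28 °C, against 805 and 575 in the same lines at 23 °C (log2 change -0.91, adjusted p = 0.00361). CycA1;4 rose, with 784 in AnS-1 and 764 in AnN at 28 °C, against 535 and 598 in the same lines at 23 °C (log2 change 0.44, adjusted p = 0.0177). None of the 3 passed the test in japonica, where the smallest adjusted p was 0.631.

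Of the 15 G1 and general probe sets 9 fell and 1 rose in indica, with a median log2 change of -0.83. Over all tested probe sets 28.9% fell and 20.6% rose, and the counts of this paragraph stand beside those shares. All 5 CDKA probe sets, which read 2 genes of the kinase that works throughout the cycle, fell, by 0.61 to 1.24 on the log2 scale. The brightest probe set of CDKA;1 had 1103 in AnS-1 and 1033 in AnN at 28 °C, against 2265 and 2137 in the same lines at 23 °C (adjusted p = 0.00082), and in japonica 1454 in Os02g12290iL1 and 1447 in ZH11 at 28 °C, against 1763 and 1786 at 23 °C. There too the arrays at 28 °C lay below those at 23 °C, without passing the test (adjusted p = 0.473). Of 10 D-type cyclin probe sets 4 fell, those of CycD3;1 (log2 change -1.65, adjusted p = 0.00194), CycD3;2 (-1.84, adjusted p = 0.00525) and CycD4;2 (-0.83, adjusted p = 0.00553), and 1 of 2 of CycD5;2 (-1.11, adjusted p = 0.0061). CycD3;1 had 409 in AnS-1 and 366 in AnN at 28 °C, against 1546 and 1015 in the same lines at 23 °C. CycD6;1 was the D-type cyclin that rose, with 1261 in AnS-1 and 1110 in AnN at 28 °C, against 814 and 802 in the same lines at 23 °C (log2 change 0.54, adjusted p = 0.0101). CycD2;2, CycD4;1, CycD5;1, CycD5;3 and the second CycD5;2 probe set did not pass. CycD4;1 changed in opposite directions, by -0.04 in AnS-1 and 1.11 in AnN.

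**Figure D2:**
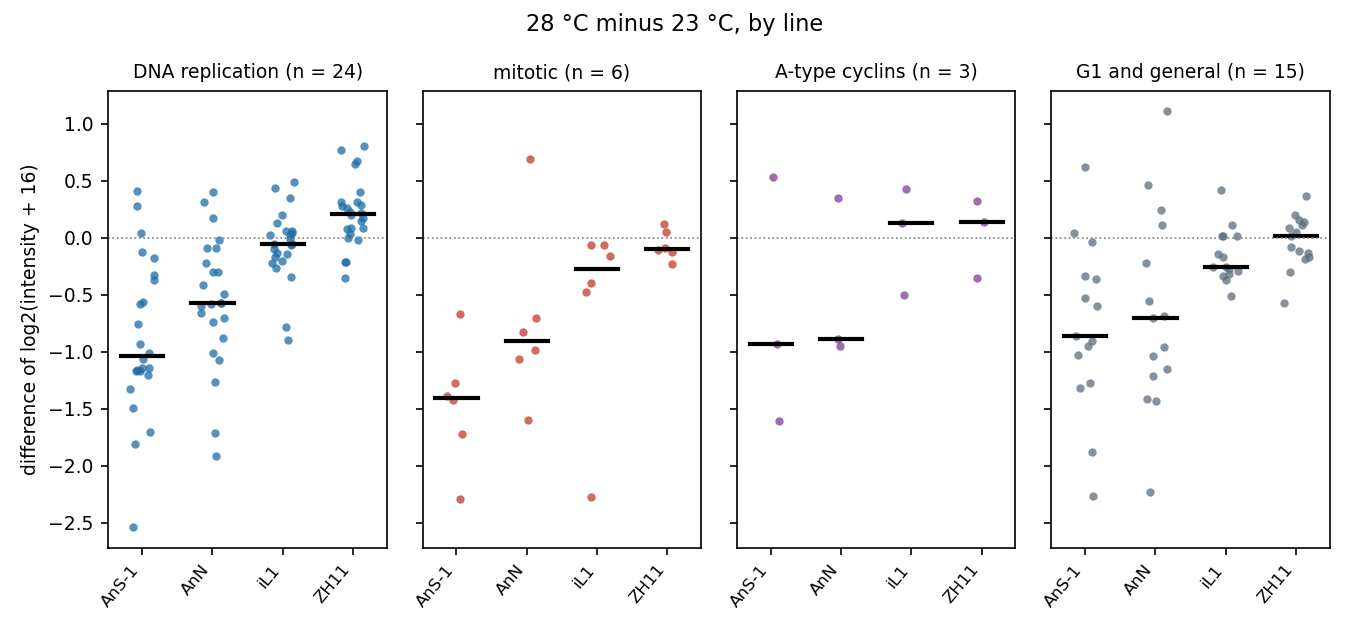
Log2 change at 28 °C relative to 23 °C (vertical axis, log2(intensity + 16)) of each member probe set in each line, by class, with a black bar at the class median. Medians of the DNA replication class were -1.04 in AnS-1, -0.57 in AnN, -0.05 in Os02g12290iL1 (iL1) and 0.21 in ZH11, and those of the mitotic class -1.41, -0.90, -0.28 and -0.10.

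By line, lower values at 28 °C stood in each indica line taken alone. In AnS-1 15 of 24 DNA replication and 6 of 6 mitotic probe sets were at least 1.5-fold lower at 28 °C than at 23 °C, where 19.2% of all tested probe sets were. In AnN the counts were 10 of 24 and 5 of 6, again beside 19.2% of all. In Os02g12290iL1 2 of 24 and 1 of 6 were (2.55% of all), and in ZH11 0 were lower while 4 of 24 DNA replication probe sets, all of them ORC genes, were at least 1.5-fold higher (2.54% of all). The lines have 1 array at each temperature, so these counts have no test.

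The temperature change itself was compared between indica and japonica in the same fit. Of the 47 tested members 17 had a lower and 1 a higher change in indica (limma adjusted p under 0.05), where 13.6% of all tested probe sets had a lower and 13.1% a higher one. The lower 17 were 5 of DNA replication, 3 mitotic, 1 A-type cyclin and 8 of G1 and general, and OsMCM6 had the widest gap, -2.07 ± 0.42 (SE) on the log2 scale (adjusted p = 0.021). CycB2;2 followed with -1.63 ± 0.30 (SE) (adjusted p = 0.0162), then RPA1B and CycD3;2 with -1.62 and -1.62 (adjusted p = 0.0186 and 0.0386). The single higher change was that of CycD6;1 (0.62, adjusted p = 0.0339). PCNA had -1.18 (adjusted p = 0.0267). The count of 18 fell to 0 without AnN at 28 °C, to 1 without AnS-1 at 28 °C, ZH11 at 23 °C or Os02g12290iL1 at 23 °C, and to 4 without ZH11 at 28 °C, and it was 33 without AnN at 23 °C.

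Cell type markers moved with temperature in indica too. The median log2 change at 28 °C of the 9 meiocyte probe sets was -0.94 in AnS-1 and -0.68 in AnN, against 0.05 in Os02g12290iL1 and 0.18 in ZH11. Their summed intensity was 3105 in AnS-1 and 2446 in AnN at 28 °C, against 5858 and 4074 at 23 °C. PAIR2, a protein of the meiotic chromosome axis, had 655 in AnS-1 and 672 in AnN at 28 °C, against 1640 and 1327 in the same lines at 23 °C (adjusted p = 0.00188). The 8 tapetum probe sets summed to 13880 and 26210 at 28 °C, against 6104 and 11430 at 23 °C. Most of the gain came from C4 in AnS-1 and from C6 and C4 in AnN. C4 had 6731 in AnS-1 and 8432 in AnN at 28 °C, against 374 and 3611 in the same lines at 23 °C. C6 had 708 in AnS-1 and 7438 in AnN at 28 °C, against 8.85 and 17.8 in the same lines at 23 °C. PTC1 was higher at 28 °C in both lines too, whereas 3 of the list were nearly level or lower in at least 1 line, GAMYB (0.27 in AnS-1 and 0.04 in AnN on the log2 scale), EAT1 (-0.70 and 0.13) and TIP2 (-0.07 and -0.80). The 9 floral organ probe sets changed less, with medians of -0.22 in AnS-1 and -0.43 in AnN. Whether the cell mixture or the stage plays a part in the changes of the division genes was not tested.

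Other cell cycle genes, 50 probe sets of which 47 were tested, showed both directions in indica, with 9 lower and 8 higher at 28 °C. Both counts are shares below those of all tested probe sets (28.9% lower and 20.6% higher). Of 12 probe sets for further replication enzymes 4 fell and 0 rose, a share of falls close to the 28.9% of all tested probe sets. The catalytic subunit gene of DNA polymerase delta, OspolD1, had 313 in AnS-1 and 248 in AnN at 28 °C, against 1076 and 563 in the same lines at 23 °C (log2 change -1.43, adjusted p = 0.00713), and the clamp loader gene OsRFC5 and both probe sets of the flap endonuclease gene FEN1A made up the rest. CKS1, a small subunit that docks to division kinases, fell by 0.85 on the log2 scale (adjusted p = 0.00228). In the classes linked to transcription, 1 of 2 CycC1;1 probe sets and CDKC-1 fell by 1.06 (adjusted p = 0.000909) and 1.07 (adjusted p = 0.00204).

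Of 9 probe sets for inhibitors of cyclin-dependent kinases (KRP, EL2 and SMR1) 5 rose and 0 fell in indica, where 20.6% of all tested probe sets rose and 28.9% fell. Those 5 read 3 genes, with 2 probe sets each for KRP6 and EL2. The inhibitors were set apart from the planned list of regulators, in which 8 of 34 tested probe sets rose and 5 fell. KRP6, of the Kip-related protein family, had 2527 in AnS-1 and 3171 in AnN at 28 °C, against 258 and 1127 in the same lines at 23 °C on its brighter probe set (log2 change 2.35 ± 0.44 (SE), adjusted p = 0.00919). In japonica that probe set had 314 in Os02g12290iL1 and 411 in ZH11 at 28 °C, against 185 and 297 at 23 °C, higher at 28 °C in both lines but not past the test (adjusted p = 0.777). EL2, a rice inhibitor of the SIAMESE-related class, had 2127 in AnS-1 and 2996 in AnN at 28 °C, against 368 and 966 in the same lines at 23 °C on 1 of its probe sets (log2 change 2.05, adjusted p = 0.0145). Of 2 KRP4 probe sets the dimmer 1 rose as well (0.91, adjusted p = 0.0158). It had 110.2 in AnS-1 and 75.9 in AnN at 28 °C, against 38 and 44.6 in the same lines at 23 °C. The brighter KRP4 probe set went the other way, by -0.24 in AnS-1 and -0.23 in AnN, and did not pass (adjusted p = 0.179). CDKF-1 and CDKF-3, of the class that activates other kinases, rose by 0.90 and 1.02 on the log2 scale (adjusted p = 0.004 and 0.00451).

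Between tms5 lines and wild types no member passed a test with adjusted p. In indica 22 of 24 DNA replication probe sets had a higher value in AnS-1 than in AnN at 28 °C and as many at 23 °C, and 6 of them exceeded 1.5-fold at both. The median log2 difference of the 24 DNA replication probe sets was 0.29 at 28 °C and 0.75 at 23 °C for AnS-1 minus AnN, and -0.10 at 28 °C and 0.15 at 23 °C for Os02g12290iL1 minus ZH11. For the 6 mitotic probe sets it was 0.02 and 0.67 in the indica pair and -0.13 and 0.04 in the japonica pair. Over all tested probe sets these medians lay between 0.01 and 0.04. In the joint test of both tms5 lines against both wild types no member passed at 28 °C or at 23 °C (limma adjusted p of 1 and 0.9999 at the smallest). Neither did any other probe set (0% of 34317), with 405 and 738 of all at an unadjusted p under 0.05 and 1 member in each. That fit had no term for a temperature change that differs between the backgrounds, so such a difference widened its spread. For the brightest CDKA;1 probe set the SE was 0.27, against 0.09 in the temperature comparison. With background by temperature as the block 3 probe sets were called at 28 °C, none of them a member, and 0 at 23 °C.

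**Figure D3:**
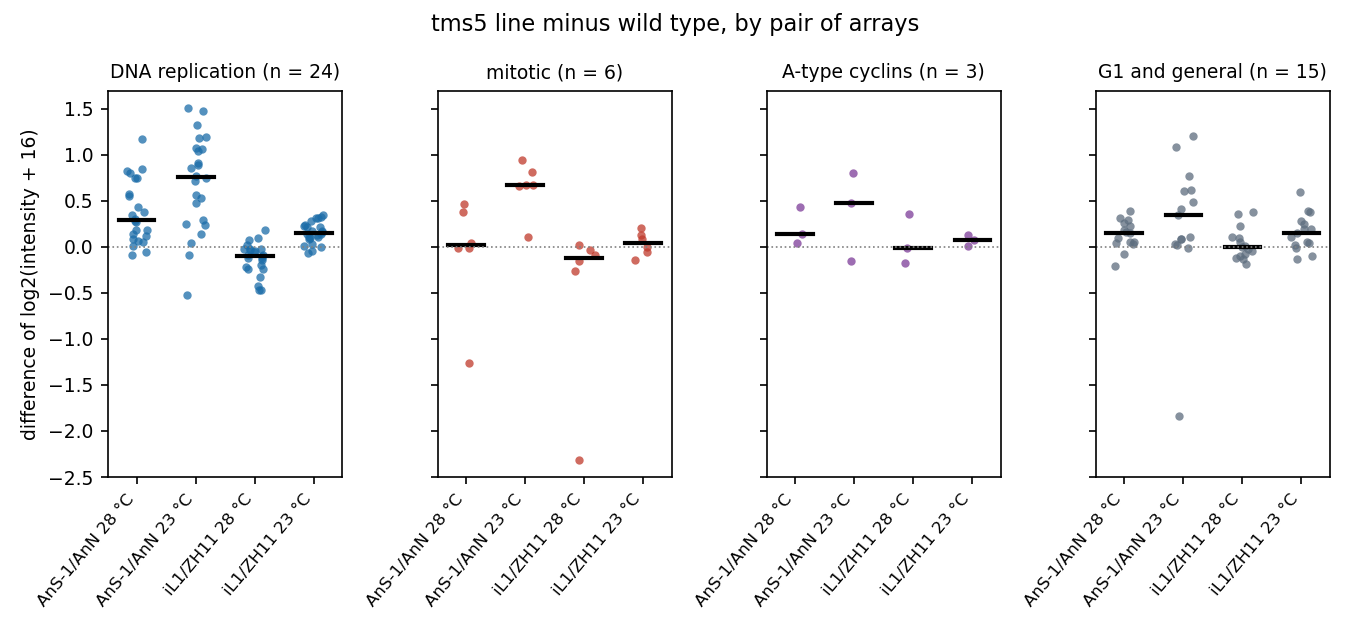
Log2 difference (vertical axis, log2(intensity + 16)) of each member probe set between the tms5 line and its wild type, for AnS-1 minus AnN and Os02g12290iL1 (iL1) minus ZH11 at each temperature, with a black bar at the class median. The DNA replication medians are 0.29 and 0.75 in indica and -0.10 and 0.15 in japonica, and the lowest mitotic points at 28 °C, at -1.26 and -2.31, are CycB1;3.

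At 28 °C 22 of 24 DNA replication probe sets were higher in AnS-1 than in AnN (59.5% of all tested probe sets were) and 6 were at least 1.5-fold higher (0.568% of all). At 23 °C 22 were higher (52.4% of all) and 14 at least 1.5-fold higher (7.38% of all), as were 5 of the 6 mitotic probe sets. Higher at both temperatures were 20 of 24 DNA replication and 3 of 6 mitotic probe sets, beside 36.1% of all tested ones, and at least 1.5-fold higher at both were 6 of 24 and 0 of 6, beside 0.201% of all. Those 6 were MCM3, MCM5, MCM7, ORC1, RPA1B and RPA2A, and each is given below. The 23 °C differences and the 28 °C differences come from separate arrays, but all of these indica arrays also enter the temperature changes above. The line differences and the temperature changes are therefore not independent.

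MCM7 had 434 in AnS-1 against 185 in AnN at 28 °C and 976 against 466 at 23 °C. In the japonica pair it had 580.3 in Os02g12290iL1 against 688 in ZH11 at 28 °C and 602 against 517 at 23 °C. Its difference over both temperatures was 1.10 ± 0.15 (SE) on the log2 scale (limma with background by temperature as the block, unadjusted p = 0.000835). The genes listed above were picked by their fold on the same indica arrays, so their unadjusted p-values are not separate support. In that limma test the adjusted p was 0.492 for each of them. MCM5 had 659 in AnS-1 against 367 in AnN at 28 °C and 1675 against 792 at 23 °C, a difference of 0.94 ± 0.12 (SE) (unadjusted p = 0.000774), and 1261 in Os02g12290iL1 against 1347 in ZH11 at 28 °C and 1208 against 1121 at 23 °C. In both genes each AnS-1 array lay above the AnN array of its temperature, and the AnS-1 value at 28 °C was below the AnN value at 23 °C. For MCM3 the values were 662 in AnS-1 against 388 in AnN at 28 °C and 1506 against 520.4 at 23 °C, a difference of 1.13 ± 0.22 (SE) (unadjusted p = 0.00447).

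ORC1 had 213 in AnS-1 against 120 in AnN at 28 °C and 489 against 206 at 23 °C, a difference of 0.97 ± 0.14 (SE) (unadjusted p = 0.00139). The large RPA subunit gene RPA1B had 415 in AnS-1 against 232 in AnN at 28 °C and 1490 against 796 at 23 °C, a difference of 0.84 ± 0.11 (SE) (unadjusted p = 0.000941). The middle subunit gene RPA2A had 820.3 in AnS-1 against 452 in AnN at 28 °C and 1914 against 677 at 23 °C, a difference of 1.16 ± 0.18 (SE) (unadjusted p = 0.00181). On the scale intensity + 16, the 6 genes were between 1.68-fold and 2.24-fold higher in AnS-1 than in AnN at 28 °C and between 1.85-fold and 2.84-fold higher at 23 °C. In the japonica pair RPA2A had 1344 in Os02g12290iL1 against 1370 in ZH11 at 28 °C and 1317 against 1168 at 23 °C, within 1.13-fold of each other. OsMCM6 fell just short of the 6, with 1.47-fold at 28 °C and 2.26-fold at 23 °C.

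Taken over both temperatures, which served as pairs, AnS-1 minus AnN gave no member and no other probe set an adjusted p under 0.05 (0% of all), the smallest adjusted p being 0.492. At an unadjusted p under 0.05, 14 of 23 tested DNA replication, 2 of 6 mitotic, 1 of 3 A-type and 3 of 15 G1 and general probe sets were higher in AnS-1 and none was lower, where 4.76% of all tested probe sets were higher at that level. The mitotic pair were CDKB2;1 and CycB2;1. For Os02g12290iL1 minus ZH11 the same test found 0 of 23 DNA replication and 0 of 6 mitotic probe sets at an unadjusted p under 0.05, and 1 member in all, where 1.21% of all were higher. It called 10 probe sets of the array (0.0291%), none of them a member. The difference between the 2 pairs was tested as well. Higher in the indica pair at an unadjusted p under 0.05 were 10 of 23 DNA replication and 1 of 6 mitotic probe sets, where 1.38% of all tested probe sets were. No probe set was called after adjustment (0% of all), and the smallest adjusted p of a member was 0.860. These 3 comparisons were added after the data were seen.

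In japonica the small differences changed sign with temperature. At 28 °C 20 of 24 DNA replication probe sets were lower in Os02g12290iL1 than in ZH11 (48.2% of all tested probe sets were) and 0 were at least 1.5-fold higher (2.11% of all). At 23 °C 21 of 24 were higher (56.1% of all) and 0 at least 1.5-fold higher (0.402% of all). ORC5 showed this with 108 in Os02g12290iL1 against 155 in ZH11 at 28 °C and 108 against 81.6 at 23 °C, and ORC3 with 133 in Os02g12290iL1 against 190.5 in ZH11 at 28 °C and 148 against 116 at 23 °C. Counted over both backgrounds, 4 of 24 DNA replication and 1 of 6 mitotic probe sets were higher in both tms5 lines at 28 °C (31.7% of all), and 19 of 24 and 4 of 6 at 23 °C (35.2% of all). The change of the tms5 difference between temperatures passed the test for no member and no other probe set (0% of all), with 1 member and 183 of all at an unadjusted p under 0.05.

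The fitted tms5 differences shifted in both directions when 1 array was left out, which cannot tell which array of a pair departs. The fitted median difference at 23 °C was 0.52 for DNA replication and 0.35 for mitotic probe sets, and without AnS-1 at 23 °C it was 0.01 and -0.16. The highest medians with 1 array left out were 0.94 and 1.03. At 28 °C the fitted medians were 0.09 and -0.07, and without AnN at 28 °C they were -0.28 and -0.46. Their highest values with 1 array left out were 0.48 and 0.41. Such refits do not return the japonica pair's own medians, which for DNA replication were 0.15 at 23 °C and -0.10 at 28 °C. AnN at 23 °C also had the highest summed green leaf signal (only 2 genes), 14540 against 3010 to 7706 on the other arrays. Meiocyte markers summed to 5858 in AnS-1 and 4074 in AnN at 23 °C and to 3105 and 2446 at 28 °C. Whether the makeup of the samples plays a part in these differences was not tested.

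CycB1;3 (also listed as CycB1-1), a B-type cyclin, was the 1 member whose intensity was lower by 1.5-fold or more in AnS-1 and in Os02g12290iL1 at 28 °C, where 0.988% of all tested probe sets were lower in both pairs by that much. It had 119.7 in AnS-1 against 309 in AnN at 28 °C and 200 against 185 at 23 °C. In the japonica pair it had 197 in Os02g12290iL1 against 1041 in ZH11 at 28 °C and 1016 against 1122 at 23 °C. The log2 differences were -1.26 and -2.31 at 28 °C (2.40-fold and 4.96-fold lower), and 0.11 and -0.14 at 23 °C. The mean difference at 28 °C was -1.79 ± 0.74 (SD, n = 2 pairs) and did not pass the test (limma adjusted p = 1, unadjusted p = 0.0112). With only the 4 arrays of 28 °C in the fit the adjusted p was 0.128, and with background by temperature as the block 0.420. Os02g12290iL1 at 28 °C lay far below the 3 other japonica arrays, and in indica the 4 arrays were all dimmer than those 3. The remaining B-type cyclins differed by -0.27 to 0.37 on the log2 scale in the pairs at 28 °C, and CDKB2;1 had 1079 in AnS-1 against 780.1 in AnN at 28 °C and 2626 against 1653 at 23 °C.

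**Figure D4:**
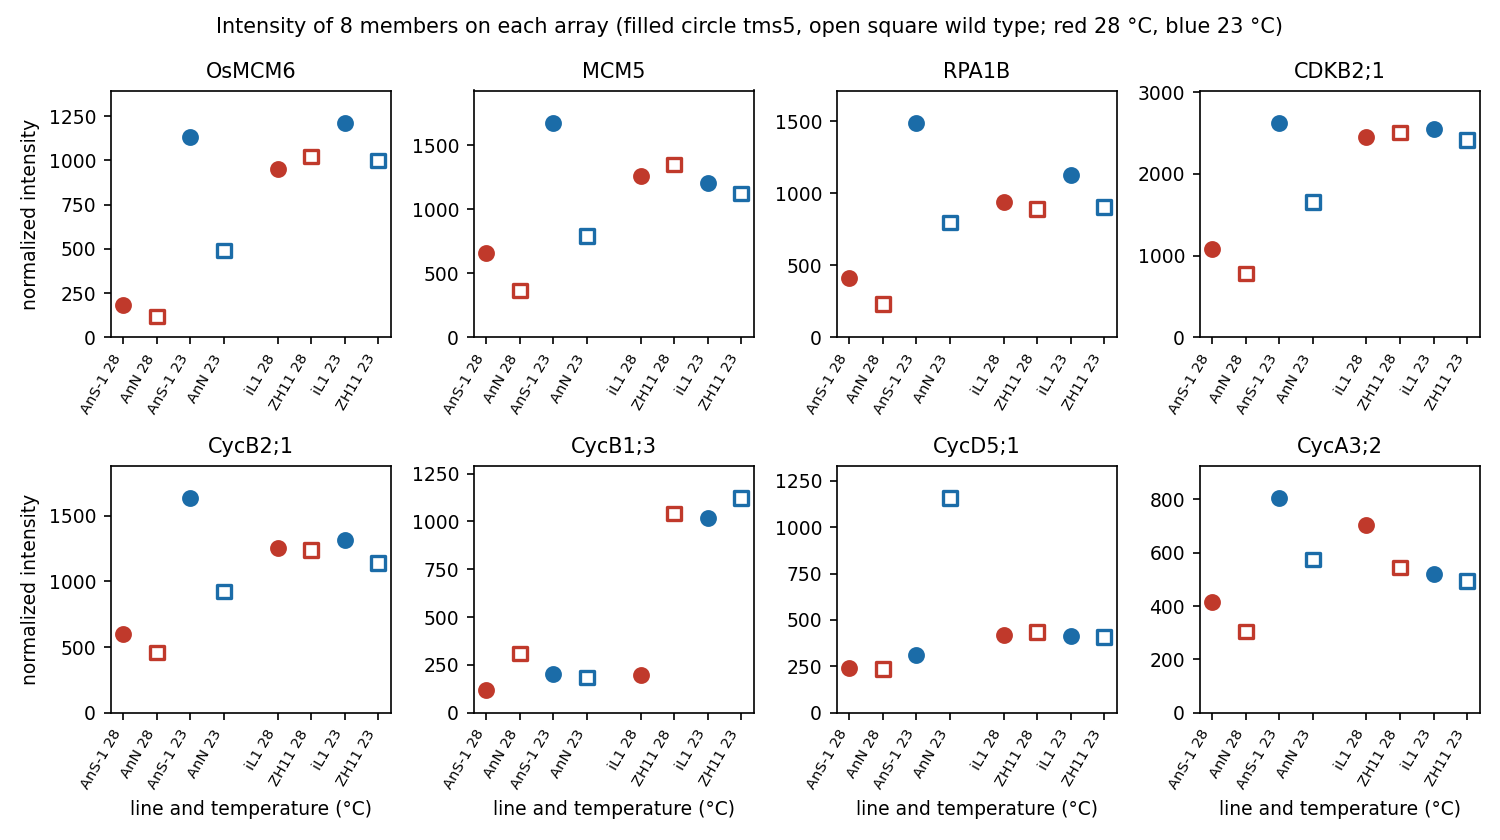
Normalized intensity (linear vertical axis from 0) of 8 members on each array, with filled circles for tms5 lines, open squares for wild types, red for 28 °C and blue for 23 °C. OsMCM6, MCM5, RPA1B, CDKB2;1, CycB2;1 and CycA3;2 are lowest on the 2 indica arrays at 28 °C. CycB1;3 is low in both tms5 lines at 28 °C (119.7 and 197), and also in AnS-1 and AnN at 23 °C (200 and 185). CycD5;1 stands out in AnN at 23 °C (1157).

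At 23 °C the 1 member with an unadjusted p under 0.05 in the joint test was CycD2;2, a D-type cyclin (log2 difference 0.53, unadjusted p = 0.0296, adjusted p = 1). It had 279.5 in AnS-1 against 268 in AnN at 28 °C and 431 against 247 at 23 °C. In the japonica pair it had 169.6 in Os02g12290iL1 against 180.3 in ZH11 at 28 °C and 215 against 174 at 23 °C. Among the other A-type and G1 genes, CycA3;2 was higher in both tms5 lines at both temperatures, by 0.43 and 0.36 at 28 °C and 0.47 and 0.07 at 23 °C on the log2 scale, and did not pass the test. CycD4;2 was higher in all 4 pairs as well, with 485 in AnS-1 against 432 in AnN at 28 °C and 954 against 714 at 23 °C and 748 in Os02g12290iL1 against 636 in ZH11 at 28 °C and 840.3 against 552 at 23 °C. CycD5;1 had 239.7 in AnS-1 against 234 in AnN at 28 °C and 313 against 1157 at 23 °C, so the AnN array at 23 °C stood alone, and in japonica it lay between 408 and 435. CycD4;1 was low on that same AnN array (393), against 901, 868 and 925 on the other indica arrays. The CDKA probe sets differed little, with medians of 0.26 and 0.10 in the indica pair and 0.01 and 0.19 in the japonica pair at 28 °C and 23 °C. Among the inhibitors, the brighter KRP6 probe set had 2527 in AnS-1 against 3171 in AnN at 28 °C and 258 against 1127 at 23 °C, and 314 in Os02g12290iL1 against 411 in ZH11 at 28 °C and 185 against 297 at 23 °C, lower in the tms5 line of all 4 pairs and not past the test (adjusted p = 1 at 28 °C and 1 at 23 °C). The dimmer KRP6 probe set did not share this, with log2 differences of 0.11 and 0.21 in the japonica pair at 28 °C and 23 °C.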

How the data were processed

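Young rice panicles of 4 lines at 2 temperatures were measured on 8 arrays, 1 per line and temperature, in 4 groups of genotype and temperature with 2 arrays each. The deposited values are intensities on a linear scale, 1 per probe set and array. Per the submitters' processing notes the tools were RMA and Affymetrix Expression Console, with no versions named. RMA output is normally in log2, whereas these values were linear, as judged from their range. They lay on 3 scales whose origin is not stated. Each of the 8 deposited columns was analysed.

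Linear intensities of all 57258 probe sets were brought to 1 distribution by quantile normalization, 64 control probe sets were left out, and log2(intensity + 16) was taken. The upper 60% by mean, 34317 probe sets, were tested with limma 3.58.1 in R 4.3.3. The tms5 comparisons used 4 group means plus background as the block (prior degrees of freedom 2.16), and the temperature comparisons 4 means of background by temperature plus genotype (2.46), each with 3 residual degrees of freedom. P-values are two-sided, with Benjamini-Hochberg adjustment over all tested probe sets at 0.05. The script was tested on simulated data. Single lines were also compared over both temperatures, with background by temperature as the block (2 residual degrees of freedom), added after the data were seen. Fold counts (1.5-fold) have no test.

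Genes came from a probe table (22436 probe sets with 1 gene, 95 with several, 34727 with none listed), and all 22436 were found in the RefSeq gene table, used for names only. The members, gene lists and tests were chosen with earlier results of these data known. Named genes were the brightest of each family, up to 3 per class, comparison and direction ranked by the smaller of the 2 changes, and members past the test. Other cell cycle genes were named by the same ranking, up to 4. PCNA, CycD5;1, CycD4;1, ORC3 and ORC5 in japonica, KRP4, CycC1;1, OsRFC5, FEN1A, CenH3, PAIR2 and the tapetum genes were named after their values were seen. Alternatives were other filters, offsets of 1 and 64, median centring, no block, 1 probe set per gene, fewer arrays and each array left out.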

Additional observations from a re-analysis of the deposited data

Results flagged for a closer look

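The temperature change of 18 member probe sets differed between indica and japonica by a test of that difference (limma adjusted p under 0.05). By that test 13.6% of all tested probe sets had a lower and 13.1% a higher change in indica. All values here are the log2 change at 28 °C in indica minus that in japonica. Among DNA replication genes the called values were -2.07 for OsMCM6, -1.62 for RPA1B, -1.04 for MCM9, -0.82 for MCM8 and -0.69 for ORC4. The MCM9, MCM8 and ORC4 values are each of 1 probe set. That ORC4 probe set changed by -0.13 in indica and 0.56 in japonica, neither past its own test, and the other, which rose in indica, had a difference of -0.19 (adjusted p = 0.342). The other MCM9 probe sets had -0.80 and 0.32 (adjusted p = 0.0944 and 0.458). Among mitotic genes they were -1.63 for CycB2;2, -1.23 for CycB2;1 and -1.17 for CDKB2;1, and CycA3;2 had -1.19. In the G1 and general class the kinase genes CDKA;1 and CDKA;2 had -0.74 and, on 3 probe sets, -0.69, -1.005 and -1.05. The D-type cyclins had -1.62 (CycD3;2), -1.33 (CycD3;1), -1.23 (CycD5;2), -0.84 (CycD4;2) and 0.62 (CycD6;1), the last being the 1 higher in indica. CycB2;2, CDKA;1 and CycD5;2 each have a second probe set that did not pass (adjusted p = 0.122, 0.127 and 0.573). Each of these values rests on 8 arrays, and the indica temperatures came on different deposited scales.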

How the results depend on the processing

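Of 719 alternative values of called members 566 kept their call, 153 lost it and 0 changed sign. The counts of called members were 11 to 38 (indica temperature change) and 0 to 33 (difference of that change between indica and japonica) when 1 array was left out, beside 29 and 18. Leaving out an array reduces its group to 1 array, which is assumed to vary like the others. Over all probe sets, the indica temperature comparison called 29204 with no filter, 9815 in the upper 40%, 6079 with 1 probe set per gene and 10076 with only its 4 arrays, beside 16976, and 6851 to 18226 with 1 array left out. The difference of the temperature change called 16833, 4540 and 2381 under the same 3 settings, beside 9172, and 3069 to 13099. Fewer or more probe sets were tested under the filters and with 1 per gene; for the 4 arrays the cause was not tested. The tms5 comparison at 28 °C, with 0 called, gave 135 (3 higher, 132 lower) with only its 4 arrays and 3 with background by temperature as the block, no member in the latter, and 0 to 0 with 1 array left out, and that at 23 °C gave 0 to 35. The japonica temperature comparison gave 0 to 69.

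Medians of DNA replication and mitotic probe sets with 1 array left out were -0.28 to 0.48 and -0.46 to 0.41 for tms5 at 28 °C, 0.014 to 0.94 and -0.16 to 1.03 for tms5 at 23 °C, -1.05 to -0.37 and -1.46 to -0.84 for temperature in indica, -0.21 to 0.36 and -0.40 to 0.023 in japonica, and -1.14 to -0.47 and -1.45 to -0.73 for the difference. The background was the block of the tms5 comparisons; the arrays carry no replicate number in the labels. Dim probe sets such as MCM8 limit what can be seen.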

Other observations

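Among the other cell cycle genes 4 of 47 tested probe sets had a lower and 3 a higher temperature change in indica than in japonica (limma adjusted p under 0.05), fewer than the 13.6% and 13.1% of all tested probe sets. They were OspolD1 (-1.40), 1 of 2 CycC1;1 probe sets (-1.02), CDKC-1 (-0.92) and CKS1 (-0.85) on the lower side and CDKF-1 (0.94), CDKF-3 (1.02) and 1 of 2 KRP4 probe sets (1.31) on the higher. CenH3, the histone of centromeres, had 574 in AnS-1 and 553 in AnN at 28 °C, against 1482 and 653 in the same lines at 23 °C, and 1462 in Os02g12290iL1 and 1429 in ZH11 at 28 °C, against 1470 and 1368 at 23 °C. Its AnS-1 value at 23 °C was 2.24-fold that of AnN, while its indica temperature change did not pass the test (log2 change -0.79, adjusted p = 0.0776).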
